A study of Mus musculus with 4 samples.

Results

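The S100 genes encode small calcium sensors of vertebrates. Here 10 of them were followed, out of 21881 gene symbols measured: S100a1, S100a3, S100a4, S100a6, S100a8, S100a10, S100a11, S100a13, S100a16 and S100b. They were chosen by family name with their FPKM in these libraries, per clone and by virus, already known, so the levels and changes below are descriptions and the counts of calls support nothing about the family. All 10 were in the table, and 8 passed the filter used for testing, an average FPKM of 1 or more across the libraries; S100a8 and S100b did not.

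The cells were immortalised, monoclonal lines of mesenchymal stem cells, fibroblast-like cells from adult mouse bone marrow (C57BL/6, Dicer f/f with the gene intact, so wild-type for Dicer in every group). Lines called clone 6 and clone 12 were each infected with a puromycin-resistant pMMP-puro retrovirus, either empty (vector, n = 2 libraries) or encoding Flag-HA-NR6A1 (NR6A1, n = 2), and all were grown in Alpha-MEM with serum. NR6A1, also called GCNF, is a nuclear receptor without a known ligand that shuts genes off in embryos and germ cells. Each line is 1 clone and gave 1 library per virus, so the NR6A1 effect in each single clone has no replicate. With virus and clone in the model, p-values rest partly on how unlike the virus change was in these clonal lines, which may be technical. The variance behind p-values and standard errors (SE) leans mostly on the other genes tested (prior of 2.90 degrees of freedom, against 1 residual). Neither measures the spread between lines.

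S100 proteins pair up as dimers of EF-hand calcium-binding subunits, open a binding surface when calcium rises, and then attach to partners such as annexins, myosin or p53. Some are secreted and act on the receptor RAGE, encoded by Ager. In fibroblasts S100A4, also called FSP1 or metastasin, and S100A6, also called calcyclin, are known as abundant members, while S100A8 and S100A9 belong to neutrophils and S100B to glia and cartilage.

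In the RefSeq gene table (assembly GRCm38.p6; the authors' files were made on mm9, so it was used here for order and names) 9 of the 10 genes lie on chromosome 3 and S100b on chromosome 10. S100a1, S100a13, S100a14, S100a16, S100a3, S100a2, S100a4, S100a5, S100a6, S100a7a, S100a8 and S100a9 follow each other in that order as a first block, and S100a11 and S100a10 stand together farther along. S100a1 and S100a13 start head to head on opposite strands, with annotated spans that overlap, and S100a2 lies within the span of S100a3. The strand setting of the counting is not given in the sources used here, so reads of such overlaps cannot be assigned with certainty.

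The start regions of 4 members are printed, chosen with their values known: S100a16 and S100a13 were lower with NR6A1 in both clones, S100a1 shares 204 bases of its window with S100a13, and S100a4 is an abundant member for contrast. A role of these regions in the changes was not tested. Each window is 300 bases of RefSeq sequence (GRCm38.p6), 250 before and 50 after an annotated start, 5′ to 3′ on the gene's strand. Capitals mark the hexamer AGGTCA, the core that nuclear receptors such as NR6A1 recognise, on either strand (TGACCT when reversed). The windows are chr3:90537004-90537303 (+) and chr3:90540896-90541195 (+) for the starts of S100a16, chr3:90514185-90514484 (+) for S100a13, chr3:90514281-90514580 (-) for S100a1 and chr3:90603520-90603819 (+) for S100a4.
S100a16, upstream start: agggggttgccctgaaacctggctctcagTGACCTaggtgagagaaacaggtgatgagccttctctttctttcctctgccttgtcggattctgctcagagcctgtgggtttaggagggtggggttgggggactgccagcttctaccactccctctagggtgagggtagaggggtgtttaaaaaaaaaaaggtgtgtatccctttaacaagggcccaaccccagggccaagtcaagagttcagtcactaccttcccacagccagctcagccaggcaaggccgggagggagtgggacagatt
S100a16, downstream start: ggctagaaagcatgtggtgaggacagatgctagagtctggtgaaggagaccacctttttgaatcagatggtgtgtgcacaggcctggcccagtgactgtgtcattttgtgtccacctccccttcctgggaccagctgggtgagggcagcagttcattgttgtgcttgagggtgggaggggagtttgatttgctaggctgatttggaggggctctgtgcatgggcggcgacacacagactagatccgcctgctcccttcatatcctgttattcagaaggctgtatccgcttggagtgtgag
S100a13: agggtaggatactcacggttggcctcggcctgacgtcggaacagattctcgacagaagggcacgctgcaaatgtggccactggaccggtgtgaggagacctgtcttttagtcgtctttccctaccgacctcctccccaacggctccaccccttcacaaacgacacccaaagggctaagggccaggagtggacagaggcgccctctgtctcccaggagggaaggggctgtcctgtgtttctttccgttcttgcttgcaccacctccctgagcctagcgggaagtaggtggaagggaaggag
S100a1: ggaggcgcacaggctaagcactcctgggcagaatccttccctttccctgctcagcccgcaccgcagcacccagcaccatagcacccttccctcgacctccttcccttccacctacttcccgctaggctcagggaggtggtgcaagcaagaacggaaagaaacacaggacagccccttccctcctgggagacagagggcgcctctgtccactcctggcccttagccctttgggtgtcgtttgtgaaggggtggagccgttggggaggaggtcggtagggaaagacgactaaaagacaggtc
S100a4: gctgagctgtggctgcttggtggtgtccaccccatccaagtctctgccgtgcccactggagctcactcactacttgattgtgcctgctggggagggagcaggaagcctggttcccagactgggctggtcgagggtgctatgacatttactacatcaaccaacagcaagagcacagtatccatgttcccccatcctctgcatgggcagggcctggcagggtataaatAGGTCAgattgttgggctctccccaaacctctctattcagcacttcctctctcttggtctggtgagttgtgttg

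The hexamer occurred once in the upstream window of S100a16 and once in that of S100a4, and in neither window of S100a13 and S100a1. RefSeq windows were found for 9 of the 10 members, S100a10 being without an entry, and 5 of their 13 windows held the hexamer (S100a3, S100a4, S100a11 and S100a16), beside 16.3% of all 32851 windows. The extended form TCAAGGTCA and the direct repeat AGGTCAAGGTCA, known as the preferred site of NR6A1, were in 0 of the 13, and in 0.423% and 0.006% of all windows. These counts describe letters in a short window and say nothing about binding. The S100a13 and S100a1 windows held 14 and 11 CpG dinucleotides, against 2 and 4 in those of S100a16, 2 in that of S100a4 and a median of 7 over all windows.

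Values are FPKM, fragments scaled to transcript length and library size, as the authors deposited them. Depth inferred from the steps between low values was about 20400000 to 24200000 reads per library. S100 transcripts are short, and Cufflinks divides by an effective length that is shorter still, so FPKM of different S100 genes compare only roughly. Changes are differences of log2(FPKM + 1), which understates the change of low genes, and calls are limma adjusted p-values of at most 0.05 over the 11346 genes tested. Nr6a1 was at 4.18 and 2.80 FPKM with vector (clone 6, clone 12) and at 783 and 598 with NR6A1, as the labels state.

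Markers of the labelled cell type were present in part. Of 12 mesenchymal and fibroblast markers 11 were tested (summed level 4194 to 5703 FPKM), with Vim at 1964 to 2404 FPKM and Col1a1 at 522 to 1547, but Thy1 reached 0.0297 FPKM at most. Of 15 myeloid markers in the table, 12 stayed under 1 FPKM in every library and Ptprc, which defines blood cells, was at 0.0234 FPKM or less; their summed level was 8.81 to 11.9 FPKM. All 8 Schwann and glial markers but Mbp stayed under 1 FPKM, and all 5 endothelial markers did. Of 8 striated muscle markers, another cell type known for S100a1, 6 did, and the sum of the 8, mostly Actc1 and Tnnt2, was 4.98 to 21.96 FPKM. In bulk RNA, fewer cells of a kind and less RNA per cell cannot be told apart.

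The family was dominated by 4 genes. S100a6, S100a4, S100a11 and S100a10 together made up 94.9% to 96.8% of the members' summed FPKM, and the members made up 0.876% to 1.28% of all FPKM in a library. By mean level S100a6 ranked 10 and S100a4 ranked 23 among all 21881 symbols, S100a11 ranked 63 and S100a10 ranked 66.

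S100a6, which binds the ubiquitin-ligase adaptor CACYBP, was at 1886 FPKM in clone 6 with vector, 2318 in clone 6 with NR6A1, 3102 in clone 12 with vector and 2927 in clone 12 with NR6A1. Both libraries of clone 12 were above both of clone 6, and the virus groups overlapped. S100a4, a partner of non-muscle myosin, was at 1486 and 1820 FPKM in clone 6 (vector, NR6A1) and at 2178 and 2136 in clone 12. It too was higher in both clone 12 libraries, with overlapping virus groups. S100a6 was above S100a4 in every library, though their ranges overlapped (1886 to 3102 against 1486 to 2178 FPKM).

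S100a10, the member that does not need calcium and holds annexin A2 at the membrane, was at 814.0 and 854 FPKM in clone 6 (vector, NR6A1) and at 1197 and 1211 in clone 12. Within a clone the viruses differed little, while the clones did not overlap. S100a11, a partner of annexin A1, was at 901 and 999.8 FPKM in clone 6 and at 1131 and 1190.3 in clone 12. S100a11 was above S100a10 in both clone 6 libraries and below it in both clone 12 libraries, so neither stood above the other across the series. RefSeq lists a pseudogene of S100a11, and how reads of such copies were shared is not given in the sources used here.

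A middle tier followed. S100a1, the heart and skeletal muscle member that acts on the calcium release channel, was at 127 and 122 FPKM in clone 6 (vector, NR6A1) and at 114 and 107 in clone 12. It was the only tested member with its highest values in clone 6, and its range over all libraries, 107 to 127 FPKM, was narrow. S100a13, which helps FGF1 and interleukin-1 alpha leave cells without a signal peptide, was at 119 and 86.6 FPKM in clone 6 and at 150 and 109 in clone 12. Its ranges overlapped those of S100a1, its neighbour in level as on the chromosome.

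S100a16, a widely expressed member that has been tied to fat cell formation, was at 21.3 and 3.57 FPKM in clone 6 (vector, NR6A1) and at 67.7 and 20.6 in clone 12. In proportion its spread over the libraries was the widest of the 8 tested members, and its highest value was below the lowest of S100a13. S100a3, known from the hair cuticle, was at 7.31 and 9.43 FPKM in clone 6 and at 13.01 and 11.2 in clone 12. The lowest S100a16 value, 3.57 FPKM, stood for about 16 to 69.1 inferred reads depending on which annotated transcript length applied.

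S100a8 and S100b were at the level of single reads. S100a8, the neutrophil member, was at 0.215 and 0.247 FPKM in clone 6 (vector, NR6A1) and at 0.682 and 0.254 in clone 12. At the inferred depths these values stood in the ratio of 1, 1, 3 and 1 reads, the smallest whole numbers that fit within 2%, and the transcript lengths gave 1.4 to 1.5 reads for the lowest. S100b, at 0.112, 0.194, 0.119 and 0.0666 FPKM in the same order, stood in the ratio of 2, 3, 2 and 1 reads. Its transcript length gave 1.7 reads for the lowest, so the true counts may be larger in the same ratio. No difference between groups was detectable at this depth, and S100a9, the partner with which S100A8 forms calprotectin, was listed at 0 in every library.

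**Figure D1:**
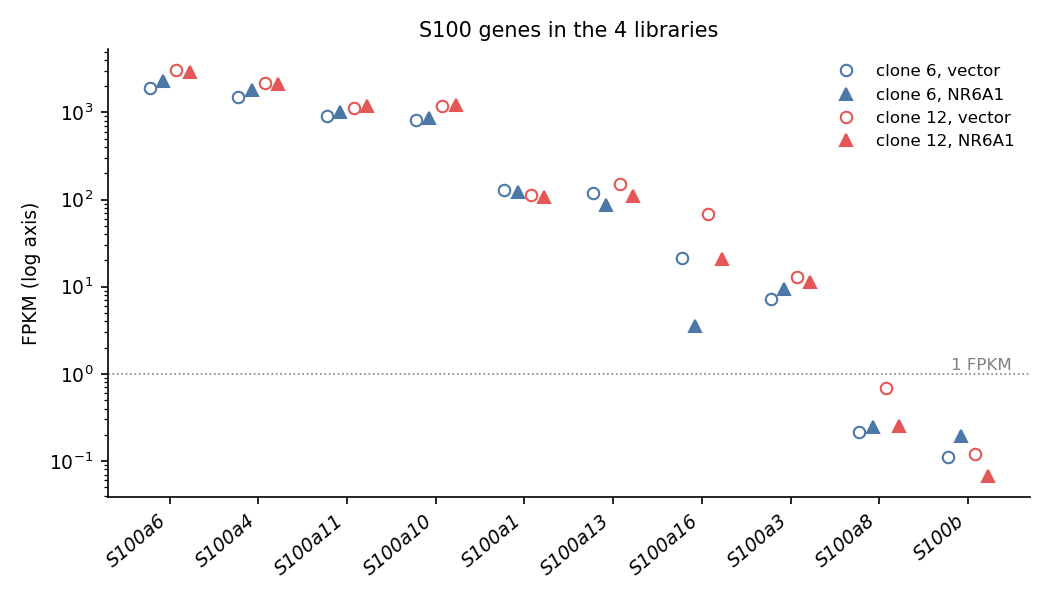
FPKM of the 10 S100 genes (log axis) in each library, ordered by mean, with open circles for vector, filled triangles for NR6A1, blue for clone 6 and red for clone 12; the dotted line is 1 FPKM. S100a6, S100a4, S100a11 and S100a10 sit between 814.0 and 3102 FPKM, S100a16 spreads from 3.57 to 67.7, and S100a8 and S100b lie under 1.

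The comparison of NR6A1 with vector asked which genes differ when the receptor is raised. S100a16 had the largest difference among the members. It was 5.97-fold lower in FPKM in clone 6 and 3.28-fold lower in clone 12, and averaged 44.5 ± 32.8 FPKM in vector libraries against 12.1 ± 12.1 in NR6A1 libraries (SD, n = 2). These SDs include the difference between the clones: clone 12 with NR6A1 (20.6 FPKM) was near clone 6 with vector (21.3), and the groups were apart by that margin alone.

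On the log scale S100a16 differed by -2.29 in clone 6 and -1.67 in clone 12, or -1.98 ± 0.17 (SE) with clone as a block, the change that ranked 39 from the lowest among the 11346 genes. Its limma adjusted p was 0.142, so it was not called. It was called with short RNA genes left out of the fit (adjusted p = 0.0197) and with a pseudocount of 5 (adjusted p = 0.0487, change -1.56), and over all settings with 4 libraries the adjusted p ran from 0.0197 to 1.

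S100a13 differed less, and by the same amount in each line. Its level was 1.38-fold lower with NR6A1 in clone 6 and 1.38-fold lower in clone 12, with means of 135 ± 21.5 against 97.8 ± 15.7 FPKM (SD, n = 2). The log2 change was -0.46 in both clones (-0.46 ± 0.07, SE; limma adjusted p = 0.274). S100a1, which starts head to head with S100a13, differed by -0.06 in clone 6 and -0.08 in clone 12 (-0.07 ± 0.07, SE; limma adjusted p = 0.764).

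**Figure D2:**
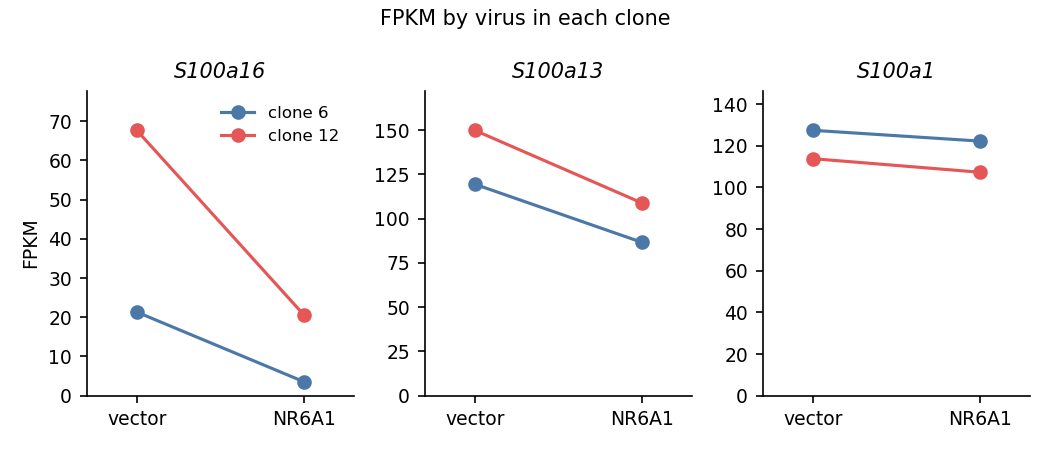
FPKM of S100a16, S100a13 and S100a1 with vector and with NR6A1, 1 point per library and 1 line per clone (blue clone 6, red clone 12), each axis starting at 0. S100a16 goes from 21.3 to 3.57 and from 67.7 to 20.6, S100a13 from 119 to 86.6 and from 150 to 109, and S100a1 stays between 107 and 127.

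The other tested members had small differences, none of them called. S100a10 differed by 0.07 and 0.02 (clone 6, clone 12) and S100a11 by 0.15 and 0.07. S100a6 (0.30 and -0.08), S100a4 (0.29 and -0.03) and S100a3 (0.33 and -0.20) were higher in clone 6 and slightly lower in clone 12. The fitted changes of these 5 genes ran from 0.04 to 0.13, with SEs of 0.08 to 0.16 and adjusted p of 0.705 to 0.906. The sign for S100a10 depended on scaling, at 0.043 as deposited and -0.037 after quantile normalization.

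Of the 8 tested members limma called 0, where 0.0353% of all genes tested were called, and 2 (S100a13 and S100a16) had an unadjusted p under 0.05, where 8.48% of all genes did. With short RNA genes left out 1 of 8 was called, where 0.467% of genes were, and with a pseudocount of 5 also 1, where 0.0617% were. Lower in both clones were 3 of 8 (S100a1, S100a13, S100a16), against 29.4% of all genes, higher in both were 2 of 8 (S100a10, S100a11), against 28.9%, and opposite in the clones were 3 of 8, against 41.1%. A level at least 2-fold lower in both clones on the log2(FPKM + 1) scale was seen for 1 of 8, S100a16, and for 0.423% of all genes. Both NR6A1 libraries lay below both vector libraries for 2 of 8, S100a13 and S100a16, and for 10.7% of all genes. The members' median change was 0.05 and that of all genes tested 0.00098.

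**Figure D3:**
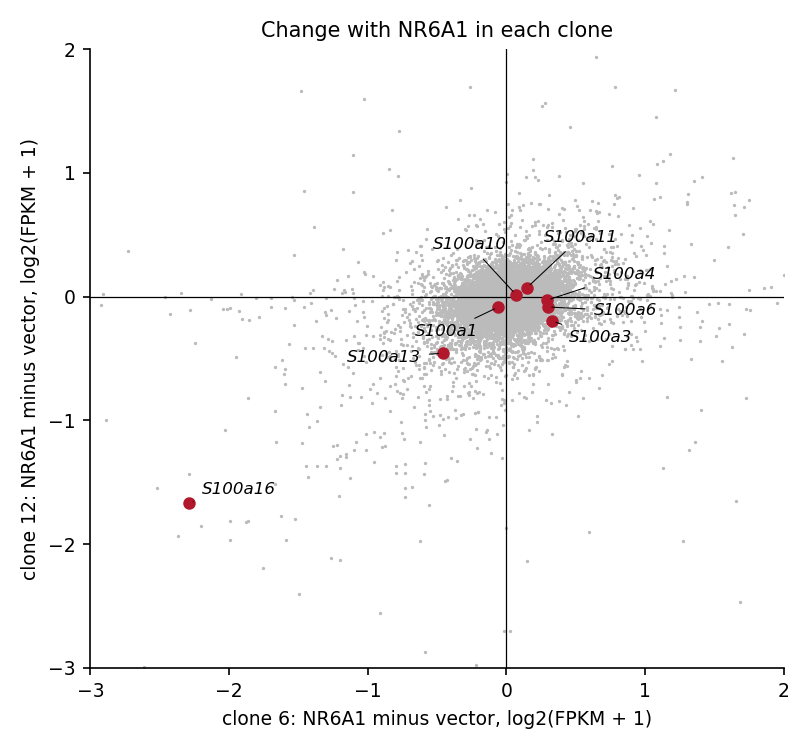
Difference NR6A1 minus vector in log2(FPKM + 1) for clone 6 (x axis) and clone 12 (y axis); grey points are genes tested (those beyond the axes are not drawn) and red points the 8 tested S100 genes. S100a16 lies at -2.29 and -1.67, S100a13 at -0.46 on both axes, and the others within 0.33 of 0.

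The lines were compared next. Under both viruses 7 of the 8 tested members were higher in clone 12, S100a1 being the exception, and 43.9% of all genes tested were. S100a6 was at 2102 ± 305 FPKM in clone 6 and 3015 ± 123 in clone 12 (SD, n = 2), S100a4 at 1653 ± 236 and 2157 ± 30.1, and S100a10 at 834 ± 28.1 and 1204 ± 9.82. S100a16 was 3.17-fold higher in clone 12 with vector and 5.78-fold higher with NR6A1.

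Fitted clone differences, with virus in the model, were 1.93 ± 0.17 for S100a16, 0.53 ± 0.08 for S100a10, 0.53 ± 0.13 for S100a6, 0.49 ± 0.16 for S100a3, 0.39 ± 0.12 for S100a4, 0.33 ± 0.07 for S100a13, 0.29 ± 0.08 for S100a11 and -0.17 ± 0.07 for S100a1 (log2, SE). Limma called 3 of 8, all higher in clone 12: S100a16 (adjusted p = 0.0179), S100a10 (0.0286) and S100a13 (0.0469). Over all genes 11.5% were called higher in clone 12. S100a13 was close to the threshold and was not called with a filter at 5 FPKM (limma adjusted p = 0.0521), upper quartile scaling (0.0642), quantile normalization (0.0620), no variance trend (0.0786), no filter (0.0856) or no virus term (0.358). For 5 of 8 (S100a6, S100a4, S100a11, S100a10, S100a3) both clone 12 libraries lay above both clone 6 libraries, as they did for 37.7% of all genes. The median clone difference was 0.44 over the 8 members and 0.04 over all genes tested.

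These counts depended on the settings. With quantile normalization 5 members were called, where 17.3% of all genes were, and at a false discovery rate of 0.1 there were 7, where 36.7% were. S100a10 and S100a16 were the 2 called with a filter at 5 FPKM, with upper quartile scaling and with no variance trend. Of all genes, 2037 of 9294, 2310 of 11346 and 1581 of 11346 were called there. S100a6 was called beside the main 3 with a pseudocount of 0.1 (limma adjusted p = 0.0492), a robust variance prior (0.0366) and short RNA genes left out (0.0284). Of all genes tested 2788 of 11346, 3092 of 11346 and 3491 of 11145 were called in these settings. With no filter on low values 0 members were called, and 0 genes of all 17887 (5360 at an unadjusted p under 0.05). Leaving out 1 vector library, of either clone, gave 0 members called, as did leaving out NR6A1 in clone 12, whereas 3 were called once NR6A1 in clone 6 was left out (S100a10, S100a4 and S100a6), where 9.53% of all genes were. The S100a16 difference ran from 0.79 to 3.08 in these fits, which lack a virus term. Each of these fits leaves 1 library in a clone, and in each limma called fewer of all genes than in the main fit. The counts of 0 are therefore not particular to the S100 members.

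Along the chromosome the lowest NR6A1 differences among the genes tested lay at S100a13 and S100a16. S100a14, which lies between those genes and was below the filter, was at 0.0990 and 0.171 FPKM in clone 6 (vector, NR6A1) and at 1.83 and 0.220 in clone 12. It was thus lower with NR6A1 in clone 12 only, and its clone 6 values were too low to compare. The next expressed gene, S100a3, and those after it were not lower with NR6A1 in both clones. On the other side, the tested neighbours before S100a1 were Chtop (listed as 2500003M10Rik), Snapin, Ilf2 and Ints3, of which 0 of 4 were called by limma for NR6A1 (1 at an unadjusted p under 0.05; changes -0.26 to 0.0066), the lowest being Snapin, at 23.2 and 20.3 FPKM in clone 6 and 32.5 and 25.6 in clone 12. Between the clones these 4 tested neighbours were higher in clone 12, by 0.09 to 0.39. Of them 1 was called (Snapin, limma adjusted p = 0.0456), where 11.5% of all genes tested were called higher. The skin barrier and Tdpoz genes that flank S100a9, S100a11 and S100a10 were all under 1 FPKM in every library where listed.

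**Figure D4:**
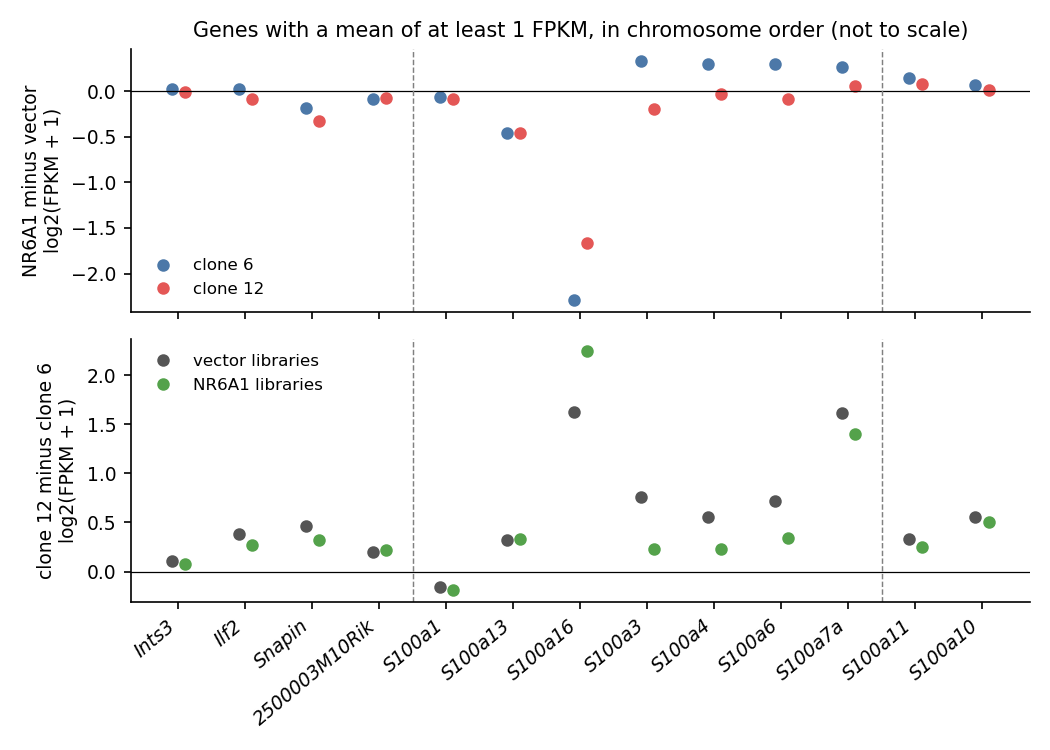
Differences in log2(FPKM + 1) for the genes tested in chromosome order, without scale, dashed lines separating the genes before S100a1, the first S100 block and the S100a11 and S100a10 pair; 2500003M10Rik is Chtop. The upper panel shows NR6A1 minus vector in each clone, lowest at S100a16 (-2.29 and -1.67), and the lower panel clone 12 minus clone 6 under each virus, highest at S100a16 (1.62 and 2.24).

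Of 12 further S100 symbols looked for, 9 were in the table and 2 passed the filter. S100pbp, which encodes an S100P-binding protein and no S100 protein, was at 7.84 to 11.7 FPKM. S100a7a, a psoriasin-like member of skin, was the other. It was at 2.66 and 3.41 FPKM in clone 6 (vector, NR6A1) and at 10.2 and 10.6 in clone 12, a clone difference of 1.51 ± 0.11 (SE, limma adjusted p = 0.0143) and an NR6A1 change of 0.16 ± 0.11 (adjusted p = 0.70). S100a5 was at 0 and 0.204 FPKM in clone 6 and at 1.32 and 0.842 in clone 12. S100a2 was listed at 0 with vector in both clones and at 0.405 and 0.417 FPKM with NR6A1, which matched 1 read in each. S100g was at 0.211 FPKM in 1 library and listed at 0 in the others, and S100a9, S100z and S100a7l2 were listed at 0 in every library.

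Partners and receptors of S100 proteins were read from a list of 31 genes, of which 23 were tested. For NR6A1 limma called 0 (5 of 23 at an unadjusted p under 0.05, where 8.48% of all genes were). Under NR6A1 11 were higher in each clone and 4 were lower, where 28.9% and 29.4% of all genes tested were. The median change was 0.06. Between the clones 4 were called higher in clone 12 and 3 lower, where 11.5% and 10.5% of all genes tested were, with a median of -0.0081. Anxa2, the annexin held by S100A10, was among the higher, at 676.0 and 675.8 FPKM in clone 6 (vector, NR6A1) and 1122 and 883 in clone 12 (0.56 ± 0.12, SE; limma adjusted p = 0.0456), beside 0.53 ± 0.08 for S100a10. The others called higher were Mdm2, the p53 ligase gene (1.60 ± 0.15), Ndrg1 (1.51 ± 0.13) and the hyaluronan receptor gene Cd44 (0.53 ± 0.08); called lower were Anxa11 (-0.47 ± 0.09), Bsg, which encodes the basigin receptor (-0.41 ± 0.08), and Anxa6 (-0.40 ± 0.08).

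Other partners were not called between the clones, or were nearly absent. Anxa1, the annexin bound by S100A11, was at 291 and 378 FPKM in clone 6 and 372 and 423 in clone 12, and Cacybp at 208 and 172 against 196 and 201. Myh9, the heavy chain of the myosin that S100A4 binds, was at 250.1 and 309 FPKM in clone 6 and 261 and 315 in clone 12. Ager, the gene for RAGE, was at 0.582 to 1.44 FPKM, and Tlr4, a receptor for S100A8, at 7.10 to 9.67. Fgf1 and Il1a, the cargo of S100A13, were at most 0.0547 and 0.0981 FPKM.

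Calcium sensors outside the family served as a second list. Of 16 genes 13 were tested, and limma called 0 for NR6A1 (1 at an unadjusted p under 0.05, where 8.48% of all genes were). Between the clones 2 of 13 were called, both lower in clone 12 (Calm3, -0.40 ± 0.08, and Cib2, -0.63 ± 0.11), where 10.5% of all genes were. Their median clone difference was -0.03, beside 0.44 for the S100 members, and their median NR6A1 change 0.08. Calm2, the most abundant calmodulin gene here, was at 561 and 480.5 FPKM in clone 6 and 541 and 477 in clone 12.

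The genes nearest in pattern were found by the distance between mean-centred log2(FPKM + 1) profiles over the 4 libraries, among 9114 genes averaging 5 FPKM or more, short RNA genes left out. Nearest to S100a6 were Rfx5 (distance 0.0133), Sat1 (0.0209) and Pfdn1 (0.0267), against a median distance of 0.583. Nearest to S100a16 were Sod3 (0.79), Mgst2 (1.16) and Clcf1 (1.27), against a median of 2.77. Sod3, the extracellular superoxide dismutase, was at 3.05 and 0.103 FPKM in clone 6 and at 24.1 and 6.10 in clone 12, and Mgst2, a glutathione transferase, at 3.70 and 1.83 and at 26.2 and 9.65. With 4 libraries many genes share any such profile, so likeness says nothing of shared control.

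Markers of cell type moved between the same groups. Ly6a, which encodes the mesenchymal marker SCA-1, was at 19.0 and 9.31 FPKM in clone 6 (vector, NR6A1) and at 317 and 125 in clone 12, higher in clone 12 and lower with NR6A1, as S100a16 was. Its clone difference was 3.80 ± 0.12 (SE, limma adjusted p = 0.00362), while Col1a1 was lower in clone 12 (-1.30 ± 0.15, SE, limma adjusted p = 0.0225). Of the same list Vcam1 was called higher in clone 12 (1.83 ± 0.34, SE, limma adjusted p = 0.0393) and Pdgfra lower (-0.84 ± 0.11, SE, limma adjusted p = 0.0237). Of the 11 mesenchymal markers tested, 1 was lower with NR6A1 in both clones and 3 were higher in both (median change 0.13). Of all genes tested 29.4% were lower in both and 28.9% higher. Under both viruses 3 of these markers were higher in clone 12, where 43.9% of all genes were, and 7 were lower. Fabp4, a fat cell marker, was at 285 and 129 FPKM in clone 6 (vector, NR6A1) and at 79.4 and 73.3 in clone 12, so it was lower in clone 12 while S100a16 was higher there, and both were lower with NR6A1. Of 6 adipocyte markers 4 were under 1 FPKM in every library, Adipoq among them, and the summed level was 162 to 326 FPKM in clone 6 and 100.2 to 109 in clone 12. The summed chondrocyte markers were at 8.09 to 12.3 FPKM over all libraries, with Col9a1 listed at 0. Among them Col2a1, the cartilage collagen gene, was at 3.70 and 2.22 FPKM in clone 6 (vector, NR6A1) and at 0.0765 and 0.103 in clone 12 (-1.84 ± 0.24, SE, limma adjusted p = 0.0241). Of the 3 chondrocyte markers tested, 1 was higher in clone 12 under both viruses and 1 was lower, with a median clone difference of 0.375. Of the 8 muscle markers only 2 were tested, and both were called lower in clone 12, where 10.5% of all genes tested were. S100a1 (-0.17 ± 0.07, SE) was not called. Actc1, a sarcomeric actin gene, differed by -1.38 ± 0.09 (SE, limma adjusted p = 0.0138) and Tnnt2, the cardiac troponin T gene, by -0.75 ± 0.14 (SE, limma adjusted p = 0.0379). With NR6A1 these 2 were higher in both clones (median change 0.645), while S100a1 differed by -0.06 in clone 6 and -0.08 in clone 12. The part of these markers in the S100 differences was not tested.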

How the data were processed

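Messenger RNA of 4 libraries was measured, 1 per clone and virus. The authors deposited FPKM values per gene symbol; TopHat 1.2.0, Cufflinks 1.0.3 and build mm9 are named, per the submitters' processing notes. The gene annotation was not given in the sources used here, nor how multiply mapped reads were treated. Total RNA was, per the labels' protocols, column-purified and DNase-treated before a standard Illumina library.

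Groups and clone numbers came from the sample titles. Genes averaging 1 FPKM or more, 11346 in all, were tested on log2(FPKM + 1) with limma 3.58.1 in R 4.3.3 (two-sided, mean-variance trend, Benjamini-Hochberg adjustment over all genes tested, threshold 0.05). The model held virus and clone, since each line received both viruses, and left 1 residual degree of freedom with a prior of 2.90. As a check of this pairing, the clone difference in vector and in NR6A1 libraries correlated across genes, which are no independent replicates (r = 0.628, or 0.874 once short RNA genes were left out). A virus by clone interaction left no residual degree of freedom and was not tested. Nearest patterns, lists and promoter windows were read with Python 3.11.15.

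Depth was inferred from 1823 genes with a single GENCODE transcript length of 1500 bases or more, where the FPKM of 1 read was taken to scale with 1 over (length minus 210 bases). Of low values 50.1% to 52.7% came within 0.1 of whole reads (20% expected by chance), which allows an estimate of depth but no test on counts. The fit and the depth estimate were tested on simulated data.

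The members and all lists were chosen with earlier results of these data known. The text names the 10 members, other S100 symbols, in each list the genes past the threshold (at most 6) or otherwise at most 4 of the most abundant, and the 3 nearest patterns of the most abundant member and of the member with the largest clone difference; Anxa1, Anxa6, Cacybp, Myh9, Ager, Tlr4, Fgf1, Il1a, Calm2 and single markers not past the threshold were named after their values were seen. The 15 alternatives covered pseudocount, filter, scaling, variance model, clone block, each library, short RNA genes and the threshold.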

Additional observations from a re-analysis of the deposited data

Results flagged for a closer look

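S100a6, S100a4 and S100a3 were higher with NR6A1 in clone 6 and lower in clone 12. The change in clone 6 minus that in clone 12 was 0.38 for S100a6 (0.30 and -0.08), 0.32 for S100a4 (0.29 and -0.03) and 0.52 for S100a3 (0.33 and -0.20), in log2(FPKM + 1). Each clone gave 1 library per virus, so the difference between clones was not tested, and 41.1% of all genes tested had opposite directions in the clones.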

How the results depend on the processing

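For NR6A1 against vector the count of S100 members called, 0 of 8, became 1 with a pseudocount of 5 and 1 with short RNA genes left out (S100a16 both times), and was 0 under the other settings and with any 1 library left out (0 to 0), where limma called 0 genes of all (97 to 300 at an unadjusted p under 0.05). For clone 12 against clone 6 the count of 3 became 0 with no filter (0 of 17887 genes called). It became 5 with quantile normalization (17.3% of all genes) and 7 at a false discovery rate of 0.1 (36.7%). It was 4 with a pseudocount of 0.1 (2788 of 11346 genes), a robust variance prior (3092 of 11346) or short RNA genes left out (3491 of 11145), S100a6 being added each time. It was 2 with a filter at 5 FPKM (2037 of 9294), upper quartile scaling (2310 of 11346) or no variance trend (1581 of 11346).

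Without the clone block the count for NR6A1 was 0, where 4 of 11346 genes were called. Between the clones, without the virus term, it was 1 (S100a10), where 1993 of 11346 genes were called. The NR6A1 changes are the same size without the block, and the adjusted p of S100a16 was then 1.

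With 4 libraries the direction of 1 NR6A1 change turned, S100a10 (-0.037 after quantile normalization). Fits with 1 library left out lack the block, and there the NR6A1 change ran from -0.17 to 0.022 for S100a1, -0.24 to 0.32 for S100a10, -0.052 to 0.28 for S100a11, -0.31 to 0.44 for S100a3, -0.14 to 0.41 for S100a4 and -0.25 to 0.47 for S100a6; S100a16 stayed at -3.10 to -0.86 and S100a13 at -0.62 to -0.29. Over the settings with 4 libraries the count of all genes called ran from 2 to 52 for NR6A1 and from 0 to 4163 between the clones. Depth limits S100a8 and S100b, which stood at a few inferred reads per library. The cause of these shifts was not tested.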
